A study of Homo sapiens with 24 samples.

Results

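Decitabine (DAC) in the human acute myeloid leukaemia cell line ELF-153 at the 144 h harvest is described across genes, pathways and transcript types. The members are the 6 libraries that the labels give to ELF-153 at 144 h, 3 of DAC-treated and 3 of untreated cells, of 24 libraries in the series. All ELF-153 cells grew in RPMI medium with 20% fetal calf serum and 5 ng/ml GM-CSF. The treated cells received 100 nM DAC, renewed with the medium each day on 4 days in a row, and the untreated cells received none. One label field gives the treatment itself as lasting 144 h, so the time between the last dose and the harvest is not settled by the labels. The libraries are stranded, ribosomal-RNA-depleted total RNA of 1 line, and are called technical triplicates, so p-values rest on differences among libraries that may come from 1 culture. Values are the authors' normalised read counts (reads of a transcript divided by a size factor of the library), summed here over each gene's transcripts, and are given for replicates 1, 2 and 3 in that order. Reads seem to have been counted only where they fell on a single transcript, so values compare between libraries and not between genes. Fold changes are on the log2(value + 1) scale, DAC minus untreated, with their standard error, and adjusted p-values come from limma with Benjamini-Hochberg adjustment over 17180 genes tested.

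DAC is an analogue of deoxycytidine that dividing cells build into DNA. There it traps DNA methyltransferases, DNMT1 above all, and methylation is lost as the cells copy their DNA. Genes that are silent in most adult cells because their promoters are methylated, such as cancer-testis, germ cell and some imprinted genes, are known to become active under such loss. Double-stranded RNA from repeats can then engage RNA sensors, which lead through interferon receptors and a complex that holds STAT2 and IRF9 to interferon-stimulated genes. In myeloid leukaemia the drug is also known for differentiation of the cells.

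The libraries differed before any comparison. Depth was 20.2, 28.5 and 21.5 Mreads assigned to transcripts in DAC libraries and 25.5, 15.8 and 16.4 Mreads in untreated libraries. Untreated replicate 1 stood apart from its group, with a chi-square per degree of freedom of 213 and 185 against the other untreated replicates, which differed from each other by 7.35. Among DAC libraries replicate 2 stood apart less, by 48.5 and 46.3 against 8.44 between replicates 1 and 3. Mitochondrial ribosomal RNA took 42.8%, 53.6% and 44.6% of reads in DAC libraries and 38.2%, 16.6% and 18.1% in untreated ones. Genes of low GC content (at or below 41.3%) stood above genes of high GC content (at or above 57.4%) by a median log2 difference of 0.21, 0.71 and 0.06 in DAC libraries, and of 0.45, −0.82 and −0.65 in untreated ones. Fits that take the GC trend or the mitochondrial share into account are given with the results. Counts that lead a section are also given without untreated replicate 1.

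**Figure D1:**
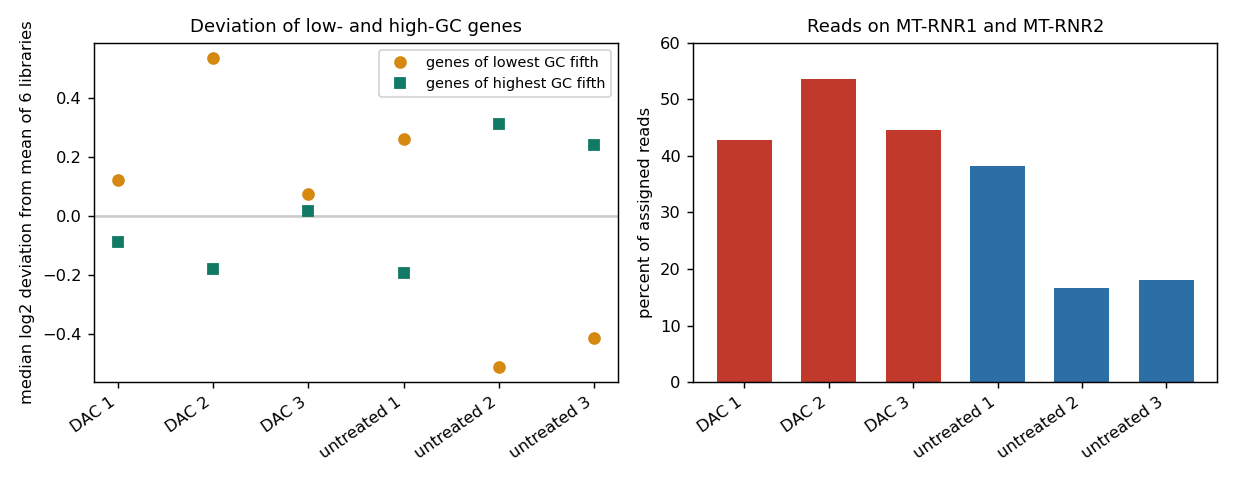
The left panel plots the median log2 deviation of the genes of lowest and highest GC content from the mean of the 6 ELF-153 libraries, and the right panel the percent of assigned reads on MT-RNR1 and MT-RNR2, per library. Untreated replicate 1 (38.2% mitochondrial ribosomal RNA) lies nearer to the DAC libraries than to untreated replicates 2 and 3 in both panels.

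Of 17180 genes tested, 3567 (20.8%) were higher and 3124 (18.2%) lower in DAC-treated than in untreated ELF-153 cells. At least 2-fold changes made up 2908 of the rises and 2120 of the falls. The median change over all genes was 0.11 on the log2 scale. All DAC libraries lay above all untreated ones in 4497 genes (26.2%) and below them in 4118 (24%). Groups that do not overlap are thus frequent here, and where named below they are description. Without untreated replicate 1, 4255 genes were higher and 3304 lower, and 6161 of the 6691 genes called with all libraries kept their call, with 0 reversed. Leaving out any other library kept 5137 to 5504 of them. With the GC trend removed 6225 were kept, and with the mitochondrial ribosomal RNA share as a covariate 3912, again with 0 reversed. That share was higher in every DAC library than in any untreated one, so its part and that of DAC cannot be told apart. In bulk RNA, more cells of a kind and more RNA per cell cannot be told apart. The plot of gene lists gives the spread of the groups described next. List members below 10 in every untreated library passed the filter through other groups, so counts over such members are description and no support. The same holds for lists below whose members of this kind are not counted in the text.

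**Figure D2:**
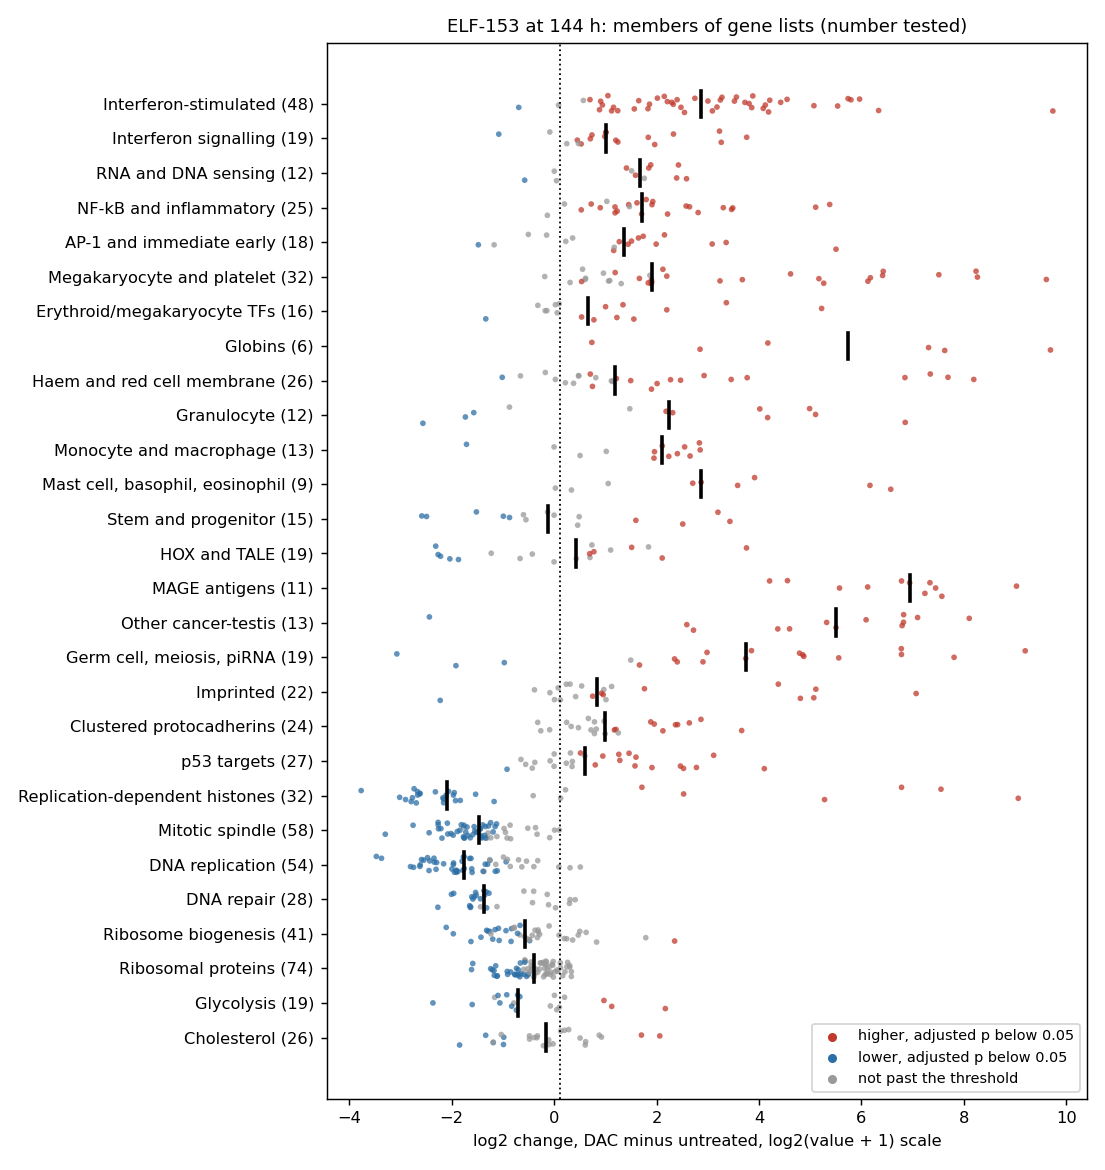
Each point is a tested member of a gene list at its log2 change, DAC minus untreated, coloured by whether it was higher, lower or not past an adjusted p of 0.05; the black bar is the list's median, the dotted line the median of all genes (0.11), and the number tested stands in brackets. Globins, MAGE antigens and most interferon-stimulated genes lie right of the dotted line, most mitotic and replication genes left of it.

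Interferon itself was close to undetected, while its signalling chain and target genes were higher. Of 20 matched interferon ligand genes, 11 had no read in the 6 libraries and 1, IFNB1, passed the filter on low values. IFNB1 (interferon beta) had 0.914, 5.51 and 1.10 in DAC libraries and 0 in each untreated library, or 8 reads against 0, and was not past the threshold in limma (adjusted p = 0.252), though it was with DESeq2. IFNL1, a type III interferon, had 2.74, 0.918 and 1.10 in DAC libraries and 0 in each untreated library, below the filter. Summed over the list, ligand values were 4.39 to 11.9 in DAC libraries, against 0 to 1.45 in untreated ones.

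Of 19 tested genes of interferon signalling, 15 were higher and 1 lower in DAC libraries (background 20.8% and 18.2%), and 14 and 1 without untreated replicate 1. The receptor chains IFNAR1 and IFNAR2, named after their values were seen, were higher by 1.01 ± 0.18 (adjusted p = 0.000725) and 1.21 ± 0.22 (adjusted p = 0.000818). STAT2, which is phosphorylated below the receptor, had 1447, 1656 and 1509.8 in DAC libraries, against 438, 413 and 435 in untreated ones (log2 change 1.84 ± 0.13, adjusted p = 3.42e-07). IRF9, the DNA-binding part of the complex, had 1003, 949.6 and 954 in DAC libraries, against 95.1, 129 and 87.6 in untreated ones (log2 change 3.23 ± 0.18, adjusted p = 3.69e-08). The groups did not overlap for either gene, and IRF9 varied less among DAC libraries. IRF7 (log2 change 2.33 ± 0.33, adjusted p = 0.000115), which amplifies the response, and IRF8 (log2 change 3.76 ± 0.61, adjusted p = 0.000319), also a myeloid lineage factor, were higher too. IRF5 was the member that fell, with 64.0, 69.7 and 63.7 in DAC libraries, against 87.8, 174 and 179 in untreated ones (log2 change −1.08 ± 0.31, adjusted p = 0.0156). The call for IRF5 was lost without untreated replicate 2 (log2 change −0.92) or 3 (−0.90), without retained-intron, processed and nonsense-mediated-decay transcripts (−1.04) and with the mitochondrial ribosomal RNA share as a covariate (−0.38).

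Of 48 interferon-stimulated genes, all of which passed the filter, 45 were higher and 1 lower, with a median log2 change of 2.88 against 0.11 over all genes. Among the 45, 6 were below 10 in every untreated library. Leaving out untreated replicate 1 gave 44 and 1. OASL, an OAS-like antiviral protein, had 497, 692 and 631 in DAC libraries, against 9.44, 9.48 and 10.7 in untreated ones (log2 change 5.79 ± 0.19, adjusted p = 4.87e-10). MX1, a dynamin-like GTPase that blocks viruses, had 187, 215 and 179 in DAC libraries, against 16.7, 13.03 and 11.7 in untreated ones (log2 change 3.72 ± 0.17, adjusted p = 6.54e-09). IFIT1, which binds RNA lacking host cap marks, had 909, 1514 and 1267 in DAC libraries, against 32.7, 10.7 and 7.47 in untreated ones (log2 change 6.33 ± 0.46, adjusted p = 5.24e-07). Every DAC library stood above every untreated library for these genes, and untreated replicate 1 had the highest IFIT1 value of its group. EPSTI1 had 43.0, 84.4 and 63.7 in DAC libraries and 0 in each untreated library, at least 67.0-fold higher; with the same transcript types left out it did not pass the threshold (log2 change 1.70). The member that fell was IFITM2, an antiviral membrane protein, with 436, 418 and 555 in DAC libraries, against 568, 866 and 864 in untreated ones (log2 change −0.69 ± 0.23, adjusted p = 0.0310). Its call was lost without DAC replicate 1 (log2 change −0.64) or 2 (−0.61), or untreated replicate 2 (−0.59) or 3 (−0.59), and with the mitochondrial covariate (−0.01).

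Most promoters found for this list hold the letters of the element known to be bound by the complex of STAT2 and IRF9. Its core, GAAA followed after any 2 bases by GAAA and read on both strands, lay in the 250 bases before an annotated start in 29 of 40 list genes found in the RefSeq promoter table (72.5%), against 3.71% of 27305 genes in the table and 3.40% of 9586 tested genes found there. A match is a description of letters and not a shown binding site. The following windows of 80 bases (RefSeq, GRCh38.p14, 5′ to 3′ on the gene's strand) are shown for genes named in this section, with the core in capitals, overlapping cores joined.
RSAD2, chr2:6877597-6877676, plus strand: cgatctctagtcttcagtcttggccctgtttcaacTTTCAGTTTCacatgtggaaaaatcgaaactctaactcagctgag
MX1, chr21:41431819-41431898, plus strand: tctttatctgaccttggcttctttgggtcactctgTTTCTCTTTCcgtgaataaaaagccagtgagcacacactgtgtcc
EPSTI1, chr13:42992247-42992326, minus strand: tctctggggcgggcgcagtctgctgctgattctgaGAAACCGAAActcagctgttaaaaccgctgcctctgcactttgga
IFI44L, chr1:78620340-78620419, plus strand: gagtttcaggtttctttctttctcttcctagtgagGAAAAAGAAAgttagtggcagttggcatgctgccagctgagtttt
ISG15, chr1:1013355-1013434, plus strand: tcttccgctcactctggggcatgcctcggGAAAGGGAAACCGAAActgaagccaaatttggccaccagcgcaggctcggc
IFIT5, chr10:89414488-89414567, plus strand: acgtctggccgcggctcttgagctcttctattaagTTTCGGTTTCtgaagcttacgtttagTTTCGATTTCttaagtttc
RSAD2 (viperin), an antiviral enzyme, had 5050.1, 7099.9 and 6479.7 in DAC libraries, against 136, 101 and 109 in untreated ones. IFI44L, an antiviral gene, had 1030.1, 2433 and 1319.9 in DAC libraries, against 1.45, 1.18 and 0 in untreated ones. With 3 reads of IFI44L in the untreated group, this gave a ratio of reads of 1695 (579.5 to 8220), where the bounds are a 95% counting interval. ISG15, a ubiquitin-like modifier whose window holds overlapping cores, had 18085, 23096 and 25197 in DAC libraries, against 713, 1142 and 1307 in untreated ones (log2 change 4.42 ± 0.23, adjusted p = 2.12e-08). IFIT5, whose window holds a pair of separate cores, had 875, 1303 and 1109 in DAC libraries, against 73.3, 46.2 and 67.3 in untreated ones (log2 change 4.12 ± 0.27, adjusted p = 1.27e-07). For all 4 genes the DAC libraries lay above every untreated library.

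Among 12 tested sensors of double-stranded RNA and DNA, 7 were higher and 1 lower, with a median of 1.68 (1.80 with members at 0 in a group set to their bound). Leaving out untreated replicate 1 gave 8 and 1. IFIH1 (MDA5), a sensor of long double-stranded RNA, had 717, 1836 and 975 in DAC libraries, against 235, 142 and 175 in untreated ones (log2 change 2.59 ± 0.34, adjusted p = 5.88e-05). EIF2AK2 (PKR), a kinase that stops translation when it binds such RNA, had 2747, 3978 and 2978 in DAC libraries, against 932, 788 and 873 in untreated ones (log2 change 1.89 ± 0.17, adjusted p = 2.30e-06). ADAR, which edits adenosines in double-stranded RNA, had 619.7, 605 and 692 in DAC libraries, against 208, 262 and 249.8 in untreated ones (log2 change 1.41 ± 0.18, adjusted p = 5.06e-05). DAC replicate 2 was the highest library for IFIH1 and EIF2AK2, and the groups did not overlap for any of the 3 genes. DHX58 (log2 change 2.43 ± 0.23, adjusted p = 3.94e-06), a regulator of MDA5, and SAMHD1 (log2 change 2.39 ± 0.20, adjusted p = 1.19e-06), a nucleotide triphosphohydrolase, were also higher. TMEM173 (STING), the adaptor of DNA sensing, was lower (log2 change −0.57 ± 0.20, adjusted p = 0.0376), and lost its call when any 1 DAC library or untreated replicate 2 or 3 was left out (log2 change −0.46 to −0.64), with the 6 ELF-153 libraries fitted alone, and with the mitochondrial covariate (−0.08). Of 4 tested APOBEC3 cytidine deaminases, APOBEC3F was higher (log2 change 1.44 ± 0.23, adjusted p = 0.000317) and the other 3 did not pass the threshold, while 2 were higher with the GC trend removed.

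Antigen presentation moved less uniformly. Of 13 tested genes of HLA class I presentation, 5 were higher and 0 lower, with a median log2 change of 0.00, and 4 were higher without untreated replicate 1. NLRC5, the transactivator of class I genes, had 318, 349.6 and 356 in DAC libraries, against 81.3, 109 and 87.6 in untreated ones (log2 change 1.88 ± 0.20, adjusted p = 7.81e-06). B2M, the shared light chain, had 253, 332 and 275 in DAC libraries, against 131, 82.9 and 67.3 in untreated ones (log2 change 1.65 ± 0.24, adjusted p = 0.000131). Both were higher in all 3 DAC libraries, while 7 of 20 list members were below the filter. HLA-B was called (log2 change 2.10 ± 0.64, adjusted p = 0.0193) with 0.726 to 29.2 normalised reads in all libraries, and lost its call without DAC replicate 1 (1.75) or 3 (2.06), or untreated replicate 1 (1.42). Of 8 tested class II genes, 1 was higher and 3 lower, or 1 lower without DAC replicate 1 or 3. CIITA, the class II transactivator, had 495, 517 and 579 in DAC libraries, against 1413, 1491 and 1341 in untreated ones (log2 change −1.42 ± 0.19, adjusted p = 6.39e-05), while the peptidase gene CTSS was higher (log2 change 1.00 ± 0.27, adjusted p = 0.00921), a call lost with the mitochondrial covariate (0.52). HLA genes share reads between alleles and paralogs, so their values are uncertain.

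Among surface ligands seen by lymphocytes, TNFSF9 (4-1BB ligand) had 870.2, 831 and 963 in DAC libraries, against 69.7, 88.8 and 105 in untreated ones (log2 change 3.34 ± 0.18, adjusted p = 2.99e-08). CD47, the signal that holds off macrophages, had 1445, 1383 and 1365 in DAC libraries, against 442, 452 and 491 in untreated ones (log2 change 1.60 ± 0.15, adjusted p = 3.50e-06). ICOSLG, the ligand of ICOS, had 196, 173 and 229 in DAC libraries, against 860.2, 1296 and 1322 in untreated ones (log2 change −2.52 ± 0.33, adjusted p = 5.38e-05), and was the member that fell. In all, 6 of 12 tested checkpoint and costimulation genes were higher and 1 lower. Below 10 in every untreated library were 3 of the 6. Of 7 tested ligands of natural killer receptors, 2 were higher (28.6%) and 1 lower (14.3%), or 2 lower without DAC replicate 3, shares near those over all genes (20.8% and 18.2%). ULBP2, a ligand of NKG2D, was higher (log2 change 1.85 ± 0.41, adjusted p = 0.00300), and NCR3LG1 (B7-H6), the ligand of NKp30, was lower (log2 change −1.63 ± 0.22, adjusted p = 7.66e-05).

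NF-kB and inflammatory genes were higher as a group, with 21 of 25 tested members higher and 0 lower (background 20.8% and 18.2%) and a median of 1.71 (1.80 with bounds). Among the 21, 3 were below 10 in every untreated library. Leaving out untreated replicate 1 gave 22 and 0. TNFAIP3, a deubiquitinase that restrains NF-kB and is itself an NF-kB target, had 2714, 2945 and 2901 in DAC libraries, against 419.6, 439 and 512 in untreated ones (log2 change 2.64 ± 0.17, adjusted p = 1.22e-07). NFKBIA, the inhibitor that holds NF-kB in the cytoplasm, had 422, 428 and 435 in DAC libraries, against 125, 129 and 114 in untreated ones (log2 change 1.80 ± 0.15, adjusted p = 9.60e-07). CXCL8 (interleukin 8), a neutrophil attractant, had 6584, 11052 and 7063 in DAC libraries, against 391, 205 and 155 in untreated ones (log2 change 5.11 ± 0.43, adjusted p = 1.66e-06). The groups did not overlap for these genes, as in 26.2% of all genes in that direction, and NFKBIA varied least within both groups. CXCL1 (log2 change 2.58 ± 0.19, adjusted p = 4.22e-07), a related chemokine, and EBI3 (log2 change 3.46 ± 0.28, adjusted p = 8.24e-07), a cytokine subunit, were higher too. Of 18 tested AP-1 and immediate early genes, 11 were higher and 1 lower, and 10 and 3 without untreated replicate 1. JUN, an AP-1 subunit, had 2704, 2286 and 2721 in DAC libraries, against 497, 741 and 722 in untreated ones (log2 change 1.99 ± 0.19, adjusted p = 4.28e-06). EGR3 had 103, 139 and 108 in DAC libraries, against 1.45, 2.37 and 1.07 in untreated ones (log2 change 5.50 ± 0.35, adjusted p = 1.10e-07), and the AP-1 family member BATF was lower (log2 change −1.48 ± 0.22, adjusted p = 0.000195). Of 12 tested complement genes, 7 were higher and 0 lower, and C3, the central component, had 95.1, 89.9 and 103 in DAC libraries, against 0, 2.37 and 0 in untreated ones, a ratio of reads of 151 (41.4 to 1253). Below 10 in every untreated library were 3 of the 7.

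The line was checked against marker genes fixed for the blood lineages. Of 8 megakaryocytic markers, ITGB3, GP1BA, GP9, PF4, PPBP, TUBB1 and ITGA2B were higher in DAC libraries. ITGA2B, the platelet integrin alpha chain, had 577, 525 and 696 in DAC libraries, against 212, 262 and 316 in untreated ones (log2 change 1.19 ± 0.21, adjusted p = 0.000512), so this marker was read in untreated cells too. The granulocytic markers MPO and ELANE had 0 reads in all 6 libraries, as had the B cell marker MS4A1 and the epithelial markers EPCAM and KRT19. The monocyte marker CD14 was read in 1 library, DAC replicate 2, at 1.84. Of T cell markers, CD3E had at most 3.29, and CD3D had 153, 145 and 172 in DAC libraries and 153, 146 and 179 in untreated ones (adjusted p = 0.978). Other members of these marker sets did change, as given further down. The granulocytic CEBPE, the monocytic LYZ and the T and NK cell marker CD2 were higher in DAC libraries. The B cell marker CD79A was lower.

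Megakaryocyte and platelet genes were higher in 22 of 32 tested members and lower in 0 (background 20.8% and 18.2%). Leaving out untreated replicate 1 gave the same counts, and the median log2 change was 1.90. Below 10 in every untreated library were 9 of the 22, which passed the filter through other groups. GP1BA, a chain of the von Willebrand factor receptor, had 898, 1063 and 1051 in DAC libraries, against 2.90, 3.55 and 1.07 in untreated ones (log2 change 8.24 ± 0.27, adjusted p = 4.87e-10). TUBB1, the tubulin of platelets, had 2709, 3555 and 3967 in DAC libraries, against 18.1, 27.2 and 10.7 in untreated ones (log2 change 7.51 ± 0.26, adjusted p = 5.84e-10). PPBP, a platelet chemokine, had 18410, 21592 and 25811 in DAC libraries, against 343, 233 and 205 in untreated ones (log2 change 6.41 ± 0.23, adjusted p = 5.92e-10). Each of these genes was higher by more than the spread in every DAC library, and none came near its untreated range. PF4, the neighbouring chemokine whose reads may be shared with a close paralog, had 1249, 1623 and 1839 in DAC libraries, against 0.726, 3.55 and 0 in untreated ones (log2 change 9.61 ± 0.42, adjusted p = 8.11e-09). THBS1, the thrombospondin of platelet granules, had 2472, 2619 and 2890.1 in DAC libraries, against 36.3, 32.0 and 39.5 in untreated ones (log2 change 6.17 ± 0.18, adjusted p = 1.71e-10). ITGB3, the integrin beta chain, had 3036, 3076 and 3339 in DAC libraries, against 31.9, 39.1 and 36.3 in untreated ones (log2 change 6.42 ± 0.14, adjusted p = 1.34e-11), the smallest adjusted p of the list.

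The transcription factors behind these lineages moved in a mixed way, with 9 of 16 tested higher and 1 lower, and 8 and 0 without untreated replicate 1. GATA1, the factor of red cells and megakaryocytes, had 1037, 1153 and 1310 in DAC libraries, against 31.9, 49.7 and 17.1 in untreated ones (log2 change 5.22 ± 0.33, adjusted p = 1.15e-07). GATA2, its counterpart in progenitors, had 2185, 2291 and 2607 in DAC libraries and 2031, 2497 and 2438 in untreated ones, overlapping groups that were not past the threshold (adjusted p = 0.914). ZFPM1 (FOG1), the cofactor of GATA1, had 2556, 2588 and 3346 in DAC libraries, against 393, 835 and 693 in untreated ones (log2 change 2.20 ± 0.34, adjusted p = 0.000236). KLF1, a factor of red cell genes, had 1969.8, 1924 and 2274 in DAC libraries, against 136, 244 and 236 in untreated ones (log2 change 3.36 ± 0.28, adjusted p = 9.68e-07). LMO2 (log2 change 1.35 ± 0.18, adjusted p = 5.38e-05) and LDB1 (log2 change 1.56 ± 0.23, adjusted p = 0.000159), which bridge GATA1 and TAL1 on DNA, were higher as well. BCL11A, which silences fetal globin, had 29.2, 56.9 and 32.9 in DAC libraries, against 134, 93.6 and 73.7 in untreated ones (log2 change −1.33 ± 0.47, adjusted p = 0.0394). Its call was lost without DAC replicate 1 (−1.15) or 3 (−1.23), or untreated replicate 1 (−1.11) or 2 (−1.36).

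All 6 tested globin genes were higher, 5 of 6 without untreated replicate 1, with a median of 5.74 (5.78 with bounds), while 5 of 11 listed were below the filter. Of the 6, 3 were below 10 in every untreated library and passed the filter through other groups. HBB, adult beta globin, had 449.7, 528 and 586 in DAC libraries, against 0.726, 2.37 and 2.14 in untreated ones (log2 change 7.62 ± 0.37, adjusted p = 9.18e-09). HBE1, embryonic epsilon globin, had 133, 141 and 208 in DAC libraries and 0 in each untreated library, at least 166-fold higher. HBD, delta globin, had 922, 1085 and 1078 in DAC libraries, against 44.3, 47.4 and 83.3 in untreated ones (log2 change 4.17 ± 0.25, adjusted p = 6.78e-08). HBG1 had 5616, 6718 and 8344 in DAC libraries, against 9.44, 2.37 and 14.9 in untreated ones (log2 change 9.69 ± 0.53, adjusted p = 4.78e-08), and its near copy HBG2 had 0 in each library, so the fetal globin level is that of reads assigned to HBG1. The alpha globins HBA1 (1.83, 4.59 and 3.29 in DAC libraries, 0 in each untreated library) and HBA2 (0.914, 1.84 and 4.39 and 0), also near copies, stayed below the filter. Embryonic, fetal and adult beta-type globins were thus all read in DAC libraries. Of 26 tested haem synthesis and red cell membrane genes, 15 were higher and 1 lower with and without untreated replicate 1, and 2 were lower without DAC replicate 2. Below 10 in every untreated library were 7 of the 15. RHAG, the Rh-associated membrane glycoprotein, had 830.0, 1424 and 1158 in DAC libraries, against 3.63, 4.74 and 1.07 in untreated ones (log2 change 8.19 ± 0.35, adjusted p = 4.47e-09). SLC4A1, the anion exchanger, had 133, 172 and 183 in DAC libraries and 0 in each untreated library, at least 170.1-fold higher. CPOX, an enzyme of haem synthesis, was higher (log2 change 2.47 ± 0.24, adjusted p = 4.28e-06), and EPB41, the membrane skeleton protein, was lower (log2 change −1.01 ± 0.27, adjusted p = 0.00921), a call lost with the mitochondrial covariate (−0.58). ALAS2, the red cell form of the first enzyme of haem synthesis, had 1.83, 0.918 and 1.10 in DAC libraries and 0 reads in untreated ones. The letters AGATAA, on both strands, were sought in the 250 bases before the start. They lay there in 6 of 16 haem and red cell genes found in the promoter table (37.5%) and 4 of 24 megakaryocyte genes (16.7%). The share was 7.15% over tested genes and 11.1% over all genes found there. Other lists held them, with 8 of 40 interferon-stimulated genes (20%), 2 of 9 MAGE genes (22.2%) and 2 of 10 other cancer-testis genes (20%). The letters lay in 0 of 49 mitotic, 0 of 46 replication and 0 of 14 germ cell genes. The megakaryocyte share was thus not particular to that lineage.

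**Figure D3:**
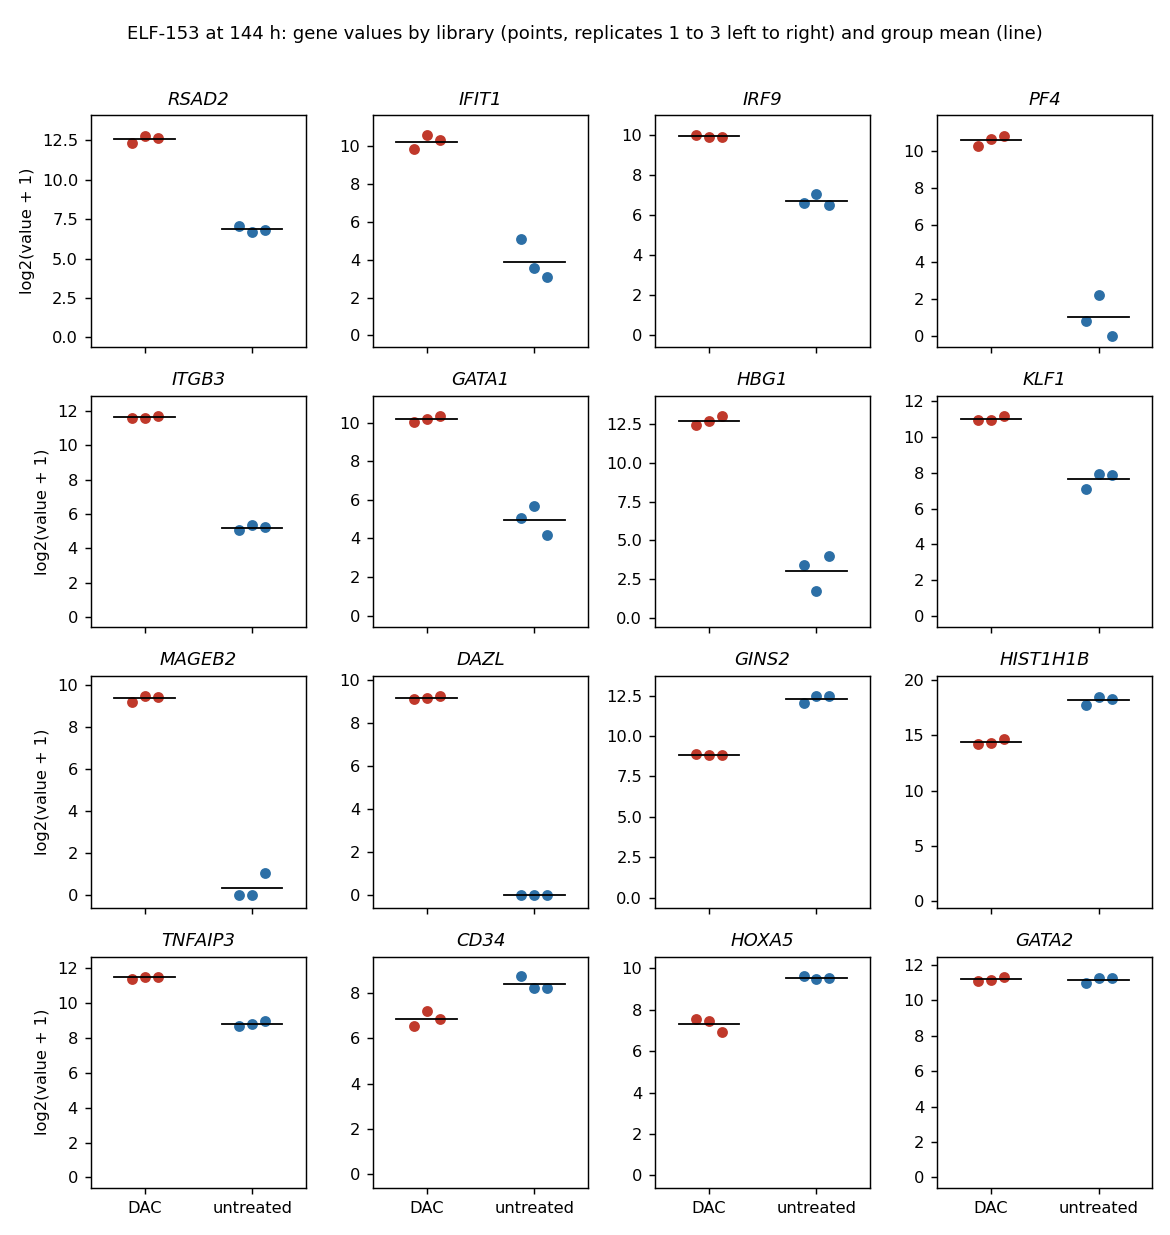
Each panel plots 1 gene's log2(value + 1) in the 3 DAC (left, red) and 3 untreated libraries (right, blue), with the group means as lines. The groups do not overlap in any panel but that of GATA2, and GINS2, HIST1H1B, CD34 and HOXA5 are the panels in which DAC libraries are lower.

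Genes of other blood lineages were also higher, without the full marker sets of any. Of 12 tested granulocyte genes, 7 were higher and 3 lower, and 13 of 25 listed were below the filter. Below 10 in every untreated library were 4 of the 7. MMP9, a neutrophil collagenase, had 6424, 7255 and 7889.6 in DAC libraries, against 136, 221 and 295 in untreated ones (log2 change 5.10 ± 0.27, adjusted p = 2.35e-08). S100A9, a calcium-binding protein of myeloid cells, had 6771, 7851 and 9790.3 in DAC libraries, against 1379, 1803 and 2219 in untreated ones (log2 change 2.19 ± 0.19, adjusted p = 1.73e-06). CTSG, a protease of primary granules, had 18.3, 11.9 and 12.1 in DAC libraries, against 78.4, 82.9 and 99.3 in untreated ones (log2 change −2.56 ± 0.28, adjusted p = 1.20e-05). The chemokine receptor CXCR2 (log2 change −1.73 ± 0.44, adjusted p = 0.00760) and the G-CSF receptor CSF3R (log2 change −1.57 ± 0.31, adjusted p = 0.00134) were lower along with it. Of 13 tested monocyte and macrophage genes, 9 were higher and 1 lower. Below 10 in every untreated library were 4 of the 9. LYZ, lysozyme, had 1401, 1720.4 and 1674 in DAC libraries, against 266, 197 and 209 in untreated ones (log2 change 2.84 ± 0.21, adjusted p = 3.83e-07), and CD33, a lectin of early myeloid cells, had 144, 155 and 142 in DAC libraries, against 522, 497 and 430.3 in untreated ones (log2 change −1.71 ± 0.19, adjusted p = 1.30e-05). Of 9 tested mast cell, basophil and eosinophil genes, 6 were higher and 0 lower. Below 10 in every untreated library were 3 of the 6. CLC, the Charcot-Leyden crystal protein, had 1361, 1864 and 1794 in DAC libraries, against 24.7, 5.92 and 28.8 in untreated ones (log2 change 6.57 ± 0.59, adjusted p = 2.80e-06). HDC, which makes histamine, had 231, 241 and 216 in DAC libraries, against 2.90, 0 and 7.47 in untreated ones (log2 change 6.17 ± 0.61, adjusted p = 4.88e-06).

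Myeloid transcription factors were divided, with 4 of 10 tested higher (40%) and 2 lower (20%), against 20.8% and 18.2% over all genes. Leaving out untreated replicate 1 gave 4 and 4. EGR1, an early growth response factor, had 602, 758 and 912 in DAC libraries, against 52.99, 78.2 and 89.7 in untreated ones (log2 change 3.36 ± 0.34, adjusted p = 5.53e-06). CEBPE, a factor of late granulocytes, was higher (log2 change 2.05 ± 0.30, adjusted p = 0.000134), while CEBPA (log2 change −1.36 ± 0.29, adjusted p = 0.00262), a factor of early ones, and IKZF1 (log2 change −0.84 ± 0.20, adjusted p = 0.00429) were lower. With the mitochondrial ribosomal RNA share as a covariate the falls of CEBPA (−0.61) and IKZF1 (−0.67) were no longer called.

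Stem and progenitor surface genes went both ways, 4 of 15 tested higher (26.7%) and 5 lower (33.3%), against 20.8% and 18.2% over all genes. With untreated replicate 1 left out, 5 were higher and 4 lower. CD34, the progenitor marker, had 93.2, 148 and 113 in DAC libraries, against 423, 296 and 296 in untreated ones (log2 change −1.52 ± 0.21, adjusted p = 7.46e-05). SPINK2, a protease inhibitor of early progenitors, had 27.4, 29.4 and 28.6 in DAC libraries, against 125, 191 and 186 in untreated ones (log2 change −2.49 ± 0.38, adjusted p = 0.000200). KIT, the stem cell factor receptor, had 239, 595 and 262 in DAC libraries and 692, 156 and 169.8 in untreated ones, which overlapped, with the highest value in untreated replicate 1 (adjusted p = 0.663). With the mitochondrial covariate KIT was called lower (−1.59, adjusted p = 0.00175). IL1RAP, an interleukin 1 receptor subunit, was higher (log2 change 2.51 ± 0.23, adjusted p = 2.14e-06). MECOM, a stem cell factor at 3q26, had 12.8, 10.1 and 13.2 in DAC libraries and 0.726, 0 and 0 in untreated ones, a ratio of reads of 37.8 (6.37 to 1531).

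Of 19 tested HOX and TALE genes 5 were lower and 5 higher (26.3% each, background 18.2% and 20.8%), with 3 higher without DAC replicate 1 or 2 and 8 lower with the GC trend removed. The median log2 change of the list was 0.43, and 3 of the 5 that rose were below 10 in every untreated library. All 5 that fell were HOXA genes, which mark the stem-like state of many leukaemias. HOXA5 had 187, 174 and 122 in DAC libraries, against 775, 720.1 and 725 in untreated ones (log2 change −2.22 ± 0.23, adjusted p = 7.00e-06). HOXA7 had 116, 186 and 197 in DAC libraries, against 624, 952 and 885 in untreated ones (log2 change −2.31 ± 0.26, adjusted p = 1.33e-05). HOXA9 had 38.4, 67.9 and 58.2 in DAC libraries, against 158, 252 and 272 in untreated ones (log2 change −2.03 ± 0.33, adjusted p = 0.000306). The groups did not overlap for these genes, nor for HOXA6 (log2 change −2.26 ± 0.31, adjusted p = 7.24e-05) and HOXA10 (log2 change −1.87 ± 0.19, adjusted p = 6.78e-06). Of 15 tested growth factor receptors 8 were higher (53.3%), 5 without DAC replicate 2, and 1 lower (6.67%), against 20.8% and 18.2% over all genes. Among the 8, 3 were below 10 in every untreated library and passed the filter through other groups. LEPR, the leptin receptor, had 116, 156 and 194 in DAC libraries, against 46.5, 27.2 and 20.3 in untreated ones (log2 change 2.33 ± 0.36, adjusted p = 0.000245).

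Lymphoid and non-blood markers were few. Of 9 tested T and NK cell markers 4 were higher (44.4%, background 20.8%) and 0 lower. Among the 4, 3 were below 10 in every untreated library and passed the filter through other groups. CD2, an adhesion receptor, had 191, 226 and 259 in DAC libraries, against 0.726, 2.37 and 5.34 in untreated ones (log2 change 6.08 ± 0.36, adjusted p = 5.70e-08). CD3G had 61.2, 119 and 115 in DAC libraries, against 2.90, 4.74 and 2.14 in untreated ones (log2 change 4.53 ± 0.44, adjusted p = 4.25e-06), with CD3E at or near 0. Of 5 tested B cell markers 2 were lower, CD79B (log2 change −2.81 ± 0.36, adjusted p = 5.13e-05) and CD79A (log2 change −1.39 ± 0.28, adjusted p = 0.00157), whose call was lost with the mitochondrial covariate (−0.64), and PAX5 had 404, 365 and 393 in DAC libraries and 375, 522 and 466 in untreated ones, not past the threshold (adjusted p = 0.464). Of 9 tested endothelial, fibroblast and epithelial markers 2 were higher and 2 lower (22.2% each), shares near those over all genes (20.8% and 18.2%). Higher were COL3A1 (log2 change 3.59 ± 0.45, adjusted p = 3.90e-05) and VWF (log2 change 1.90 ± 0.31, adjusted p = 0.000322), which megakaryocytes also make. Lower were TIE1 (log2 change −1.42 ± 0.20, adjusted p = 0.000114) and KRT18 (log2 change −0.94 ± 0.24, adjusted p = 0.00733), the second of which lost its call with the mitochondrial covariate (−0.43).

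Many cancer-testis antigens, which are normally read in the testis, were read in DAC libraries and hardly or not at all in untreated ones. All 11 tested MAGE genes were higher (background 20.8%), with a median of 6.94 (6.999 with bounds). These 11 passed the filter through the treated cells, so that no count over them is support, and 13 of 24 matched MAGE genes were below it, 6 of them with no read. The summed value of the matched list was 1596 to 1890.1 in DAC libraries, against 0 to 3.20 in untreated ones. MAGEC2 had 183, 166 and 222 in DAC libraries and 0 in each untreated library, at least 198-fold higher. MAGEB10 had 151, 177 and 195 in DAC libraries and 0 in each untreated library, at least 182-fold higher. MAGEA1 had 133, 163 and 190.0 in DAC libraries and 0 in each untreated library, at least 169-fold higher. The DAC libraries lay close together for these genes, and no untreated library had a read of them. MAGEB2 had 589, 716 and 692 in DAC libraries, against 0, 0 and 1.07 in untreated ones, a ratio of reads of 2096 (376 to 82842).

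Of 13 other tested cancer-testis genes 12 were higher and 1 lower, with 26 of 39 matched below the filter. Of the 12, 10 had less than 10 normalised reads in every untreated library and passed the filter through other groups, so that no count over them is support. DDX53, a helicase gene on the X chromosome, had 205, 406 and 247 in DAC libraries and 0 in each untreated library, at least 303-fold higher. SSX1, known from synovial sarcoma fusions, had 78.6, 165 and 102 in DAC libraries and 0 in each untreated library, at least 122-fold higher. CTAG2, a relative of NY-ESO-1, had 58.5, 56.0 and 92.2 in DAC libraries and 0 in each untreated library, at least 71.1-fold higher. ACTL8, an actin-like gene, was read in untreated cells and fell, with 98.7, 133 and 81.3 in DAC libraries, against 426, 567 and 713 in untreated ones (log2 change −2.43 ± 0.55, adjusted p = 0.00353).

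Genes of the germ line proper were higher in 15 of 19 tested members and lower in 3 (16 and 3 without untreated replicate 1), with 41 of 60 listed below the filter. Of the 15, 11 were below 10 in every untreated library, and their count is likewise no support. DAZL, an RNA-binding protein of germ cells, had 567, 573 and 617 in DAC libraries and 0 in each untreated library, at least 615-fold higher. TDRD9, a helicase of the piRNA pathway, had 335, 300.0 and 351 in DAC libraries, against 2.18, 0 and 0 in untreated ones, a ratio of reads of 345 (118 to 1676). TDRD12, also of the piRNA pathway, had 511, 639 and 564 in DAC libraries, against 6.53, 1.18 and 7.47 in untreated ones (log2 change 6.78 ± 0.56, adjusted p = 9.93e-07). SYCE1, of the synaptonemal complex, had 109.7, 148 and 137 in DAC libraries, against 0.726, 0 and 0 in untreated ones, a ratio of reads of 414 (74.0 to 16407). The members that fell were DMC1, the meiotic recombinase, with 3.66, 8.26 and 7.69 in DAC libraries, against 67.5, 52.1 and 59.8 in untreated ones (log2 change −3.07 ± 0.52, adjusted p = 0.000458), SYCE2 (log2 change −1.92 ± 0.43, adjusted p = 0.00351) and PLD6 (log2 change −0.97 ± 0.17, adjusted p = 0.000536). All 3 of these were read in every untreated library.

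The promoters of 4 of these genes are shown because their CG pairs are the sites that can carry methylation, which was not measured here. They are the 100 bases before the annotated start (RefSeq, GRCh38.p14, 5′ to 3′ on the gene's strand), with each CG in capitals.
MAGEB2, chrX:30215463-30215562, plus strand: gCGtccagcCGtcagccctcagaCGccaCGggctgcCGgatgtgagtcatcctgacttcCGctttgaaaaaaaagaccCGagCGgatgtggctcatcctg
MAGEC2, chrX:142205291-142205390, minus strand: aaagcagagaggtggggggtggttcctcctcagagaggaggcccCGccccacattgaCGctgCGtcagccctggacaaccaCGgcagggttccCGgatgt
DDX53, chrX:22999860-22999959, plus strand: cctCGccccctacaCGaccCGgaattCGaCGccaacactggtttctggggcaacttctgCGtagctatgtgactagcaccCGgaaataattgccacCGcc
DAZL, chr3:16605424-16605523, minus strand: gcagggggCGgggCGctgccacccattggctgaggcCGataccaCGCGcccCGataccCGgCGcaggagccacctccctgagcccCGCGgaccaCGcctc
They hold 8, 5, 8 and 11 CG pairs in the order printed. Over the windows of 250 bases, the median number of CG pairs was 11 for 9 MAGE genes, 9 for 10 other cancer-testis genes and 23.5 for 14 germ cell genes, against 22 for all tested genes found in the promoter table. Interferon-stimulated genes had a median of 8 and megakaryocyte genes of 7.5.

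Genes of the DNA methylation machinery went both ways. DNMT1, the maintenance methyltransferase, had 229, 218 and 212 in DAC libraries, against 412, 407 and 439 in untreated ones (log2 change −0.93 ± 0.23, adjusted p = 0.00608). That call was lost with retained-intron, processed and nonsense-mediated-decay transcripts left out (−0.59) and with the mitochondrial ribosomal RNA share as a covariate (−0.53). DNMT3B, a de novo methyltransferase, had 9.14, 9.18 and 5.49 in DAC libraries, against 34.8, 82.9 and 79.0 in untreated ones (log2 change −2.83 ± 0.42, adjusted p = 0.000161). DNMT3A had 48.4, 74.3 and 67.0 in DAC libraries and 42.8, 37.9 and 48.0 in untreated ones and was not past the threshold (adjusted p = 0.107). TET1, which oxidises methylcytosine, was lower (log2 change −1.55 ± 0.30, adjusted p = 0.00130), as was MBD3 (log2 change −1.32 ± 0.20, adjusted p = 0.000181), while GADD45B (log2 change 2.46 ± 0.38, adjusted p = 0.000232), a stress gene linked to demethylation, was higher. ZBTB38, a reader of methylated DNA, had 42.0, 67.0 and 42.8 in DAC libraries and 0 in each untreated library, at least 53.8-fold higher. In all 6 of 19 tested members were higher (31.6%, against 20.8% over all genes) and 4 lower (21.1%, against 18.2%), and 8 and 4 without untreated replicate 1. Among the 6, 3 were below 10 in every untreated library and passed the filter through other groups.

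Genes that handle the drug or nucleotides were lower in 7 of 17 tested (41.2%) and higher in 3 (17.6%). Over all genes the shares were 18.2% and 20.8%. SLC29A1, the nucleoside transporter ENT1, had 13.7, 8.26 and 12.1 in DAC libraries, against 52.3, 79.4 and 70.5 in untreated ones (log2 change −2.47 ± 0.32, adjusted p = 4.66e-05). UCK2, a uridine-cytidine kinase, had 862, 818 and 956 in DAC libraries, against 3186, 3141 and 3158 in untreated ones (log2 change −1.85 ± 0.16, adjusted p = 1.96e-06). SAMHD1, which cleaves the active triphosphate of DAC, had 1376, 1736 and 1554 in DAC libraries, against 271, 299.7 and 313 in untreated ones (log2 change 2.39 ± 0.20, adjusted p = 1.19e-06). The untreated libraries lay above every DAC library for the first pair and below for SAMHD1. DUT (log2 change −2.36 ± 0.26, adjusted p = 1.09e-05) and RRM2 (log2 change −1.77 ± 0.27, adjusted p = 0.000203), which keep up the supply of thymidine and deoxynucleotides, were lower, and RRM2B, the p53-linked subunit, was higher (log2 change 1.58 ± 0.46, adjusted p = 0.0162). RRM2B lost its call without DAC replicate 2 (1.38) or untreated replicate 2 (1.30) or 3 (1.48), and with the mitochondrial covariate (0.28).

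Of 21 tested silencers of retroelements 5 were lower (23.8%, near the 18.2% over all genes), 3 without DAC replicate 1, and 1 was higher. The 1 higher, MORC2 (log2 change 0.58), lost its call without DAC replicate 2 or 3, without untreated replicate 2 or 3 and with the mitochondrial covariate, while 2 members were higher without DAC replicate 1 and 3 without untreated replicate 1. SUV39H1, a histone H3 lysine 9 methyltransferase, had 218, 166 and 245 in DAC libraries, against 759, 1324 and 1325 in untreated ones (log2 change −2.40 ± 0.25, adjusted p = 6.92e-06). HELLS, a chromatin remodeller needed for DNA methylation, had 124, 136 and 80.2 in DAC libraries, against 523, 456 and 469 in untreated ones (log2 change −2.11 ± 0.46, adjusted p = 0.00285). CBX5 (HP1 alpha), which binds the mark of SUV39H1, was lower too (log2 change −1.43 ± 0.18, adjusted p = 4.66e-05). Of 6 tested genes that carry retroviral envelope reading frames, 4 were higher and 0 lower. Below 10 in every untreated library were 3 of the 4. ERV3-1 had 1819.9, 1898 and 1768 in DAC libraries, against 381, 405 and 382 in untreated ones (log2 change 2.23 ± 0.24, adjusted p = 1.05e-05), and ERVW-1 (syncytin 1) had 13.7, 11.01 and 16.5 in DAC libraries and 0 in each untreated library, at least 14.3-fold higher.

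Imprinted genes, where methylation silences the copy of 1 parent, were higher in 9 of 22 tested members and lower in 1, or 2 without untreated replicate 1, with a median of 0.84 (0.65 with bounds). Below 10 in every untreated library were 5 of the 9. MKRN3, in the Prader-Willi region, had 216, 240.4 and 267 in DAC libraries, against 0.726, 2.37 and 0 in untreated ones, a ratio of reads of 252 (85.9 to 1225). NDN, from the same region, had 33.8, 40.4 and 25.3 in DAC libraries and 0 in each untreated library, at least 35.4-fold higher. PEG10, derived from a retroelement, had 16.5, 25.7 and 46.1 in DAC libraries and 0 in each untreated library, at least 29.9-fold higher. KCNQ1, a potassium channel gene, was the member that fell (log2 change −2.22 ± 0.43, adjusted p = 0.00120), a call lost with the mitochondrial covariate (−1.08), and PEG10 lost its call with DESeq2. Of 24 tested clustered protocadherins, 10 were higher (41.7%, background 20.8%) and 0 lower. Among the 10, 4 were below 10 in every untreated library and passed the filter through other groups. PCDHGA3 had 85.0, 91.8 and 76.9 in DAC libraries, against 7.26, 13.03 and 12.8 in untreated ones (log2 change 2.87 ± 0.49, adjusted p = 0.000469). Protocadherin transcripts of a cluster share exons, so their split is uncertain.

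Cell division genes were lower. Of 54 tested genes of DNA replication and S phase, 40 were lower and 0 higher (background 18.2% and 20.8%), with and without untreated replicate 1, and the median log2 change was −1.76. GINS2, of the replicative helicase, had 467, 452 and 457 in DAC libraries, against 4203, 5598 and 5599 in untreated ones (log2 change −3.47 ± 0.16, adjusted p = 5.56e-09). MCM2, also of that helicase, had 644, 703 and 800.5 in DAC libraries, against 2782, 3435 and 3369 in untreated ones (log2 change −2.16 ± 0.16, adjusted p = 4.65e-07). The groups were far apart for both genes, and untreated replicate 1 was the lowest of its group. CHAF1B (log2 change −2.74 ± 0.17, adjusted p = 9.10e-08), a histone chaperone behind the fork, GINS1 (log2 change −2.59 ± 0.17, adjusted p = 1.43e-07), PCNA (log2 change −2.43 ± 0.23, adjusted p = 3.12e-06), the sliding clamp, and CDT1 (log2 change −2.54 ± 0.25, adjusted p = 4.31e-06), which licenses origins, were lower as well.

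Of 58 tested mitotic genes, 42 were lower and 0 higher, 36 and 0 without untreated replicate 1, with a median of −1.47. SMC4, of condensin, had 525, 433 and 534 in DAC libraries, against 1752, 2273 and 2286 in untreated ones (log2 change −2.07 ± 0.16, adjusted p = 6.27e-07). SPC24, of the kinetochore, had 198, 206 and 237 in DAC libraries, against 984, 1284 and 1233 in untreated ones (log2 change −2.44 ± 0.20, adjusted p = 9.19e-07). KIF4A, a motor of the spindle midzone, had 208, 254 and 273 in DAC libraries, against 786, 822 and 858 in untreated ones (log2 change −1.75 ± 0.20, adjusted p = 1.94e-05). These 3 genes showed every DAC library below every untreated library. MKI67 (Ki-67), named after its value was seen, had 250.4, 267 and 250.4 in DAC libraries, against 999.6, 754 and 767 in untreated ones (log2 change −1.70 ± 0.30, adjusted p = 0.000584), and CDC20, an activator of the anaphase complex, was lower (log2 change −2.75 ± 0.38, adjusted p = 8.39e-05).

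The letters of known cell cycle elements lay in part of the promoters of these lists. The cell cycle homology region (CHR) TTTGAA, on both strands, lay in the 250 bases before the start in 24 of 49 mitotic genes found in the promoter table (49.0%), against 11.9% of tested genes. CCAAT lay in 37 of 49 (75.5%), against 41.3%. The E2F site TTCCCGCC lay in 9 of 46 replication genes (19.6%), against 5.44%. Windows of 80 bases around a match are shown for genes of these lists, picked after their values were seen, with the CHR in capitals in the first 4 and the E2F site in capitals in the last 3 (RefSeq, GRCh38.p14, 5′ to 3′ on the gene's strand).
SMC4, chr3:160399538-160399617, plus strand: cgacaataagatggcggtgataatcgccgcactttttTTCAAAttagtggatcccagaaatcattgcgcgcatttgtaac
NCAPD2, chr12:6493920-6493999, plus strand: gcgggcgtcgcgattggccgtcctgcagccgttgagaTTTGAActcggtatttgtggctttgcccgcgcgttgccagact
KIF4A, chrX:70290024-70290103, plus strand: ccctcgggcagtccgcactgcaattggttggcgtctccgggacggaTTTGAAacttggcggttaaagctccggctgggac
CDC20, chr1:43358879-43358958, plus strand: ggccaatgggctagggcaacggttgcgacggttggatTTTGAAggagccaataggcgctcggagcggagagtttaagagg
GINS2, chr16:85688955-85689034, minus strand: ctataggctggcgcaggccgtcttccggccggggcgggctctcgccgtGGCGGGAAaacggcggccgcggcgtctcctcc
PCNA, chr20:5126639-5126718, minus strand: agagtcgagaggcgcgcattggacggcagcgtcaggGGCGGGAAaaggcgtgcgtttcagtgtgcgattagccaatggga
CDT1, chr16:88803709-88803788, plus strand: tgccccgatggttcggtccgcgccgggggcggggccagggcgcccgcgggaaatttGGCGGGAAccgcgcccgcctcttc
NCAPD2, also of condensin, had 172, 167 and 165 in DAC libraries, against 396, 468 and 519 in untreated ones (log2 change −1.44 ± 0.16, adjusted p = 1.52e-05).

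Replication-dependent histone genes, whose messages end in a stem loop and lack a poly(A) tail, made up much of the untreated libraries and were mostly lower. Of 32 tested (36 of 57 listed were matched), 23 were lower and 6 higher, and 24 and 6 without untreated replicate 1. Their summed value was 164840 to 212840 in DAC libraries, against 753880 to 1299500 in untreated ones. HIST1H1B, linker histone H1.5, had 18785, 20745 and 26524 in DAC libraries, against 213790, 372520 and 325990 in untreated ones (log2 change −3.76 ± 0.22, adjusted p = 4.87e-08). HIST1H3H, an H3 gene, had 17091, 17508 and 22365 in DAC libraries, against 67550, 114920 and 106530 in untreated ones (log2 change −2.32 ± 0.20, adjusted p = 1.52e-06). HIST1H4B, an H4 gene, went the other way, with 1898, 1948 and 2254 in DAC libraries, against 3.63, 4.74 and 1.07 in untreated ones (log2 change 9.06 ± 0.39, adjusted p = 3.47e-09). HIST1H1A, linker histone H1.1, did so too, with 250.4, 288 and 354 in DAC libraries, against 2.90, 0 and 0 in untreated ones (log2 change 7.55 ± 0.53, adjusted p = 2.33e-07), as did HIST1H4C, HIST1H2BF, HIST1H2AC and HIST4H4. Histone genes are near copies of each other, so reads may be split among them. The testis linker histone HIST1H1T had 540.2, 639.5 and 656 in DAC libraries, against 18.9, 4.74 and 18.2 in untreated ones (log2 change 5.56 ± 0.39, adjusted p = 2.12e-07).

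Of 28 tested DNA repair genes 17 were lower and 0 higher, 16 without untreated replicate 1. PARP1, a sensor of DNA breaks, had 2891, 3291 and 3475 in DAC libraries, against 7016, 7944 and 8324 in untreated ones (log2 change −1.27 ± 0.13, adjusted p = 8.55e-06). H2AFX (log2 change −1.56 ± 0.24, adjusted p = 0.000246), the histone variant phosphorylated at breaks, and FANCG (log2 change −1.61 ± 0.18, adjusted p = 1.43e-05), of the Fanconi anaemia core complex, were lower as well. Inhibitors of cyclin-dependent kinases were higher in 4 of 8 (50%) and lower in 2 (25%), against 20.8% and 18.2% over all genes. The number lower was 1 with any 1 DAC library, or untreated replicate 1 or 2, left out. Among the 4 that were higher, 2 were below 10 in every untreated library and passed the filter through other groups. CDKN2B (p15), often methylated in myeloid leukaemia, had 138, 162 and 129.6 in DAC libraries, against 0.726, 0 and 1.07 in untreated ones, a ratio of reads of 228 (62.6 to 1885). CDKN1A (p21) had 22.9, 13.8 and 24.2 in DAC libraries, against 2.90, 4.74 and 1.07 in untreated ones (log2 change 2.53 ± 0.43, adjusted p = 0.000475), and CDKN1B (p27) was lower (log2 change −1.15 ± 0.19, adjusted p = 0.000385). CDKN2D (p19) was higher (log2 change 2.35 ± 0.25, adjusted p = 9.34e-06), and every DAC library of these 4 genes lay outside the untreated range. CDKN3 (log2 change −2.03) was the fall that lost its call without those libraries, and with a replicate block, and CDKN2A (log2 change 0.79) lost its call without DAC replicate 1 or 3.

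Of 27 tested p53 target genes 14 were higher (51.9%, background 20.8%) and 1 lower, 0 without DAC replicate 3. Among the 14, 4 were below 10 in every untreated library and passed the filter through other groups. BTG2, an antiproliferative gene, had 4071, 4684 and 4909 in DAC libraries, against 274, 232 and 286 in untreated ones (log2 change 4.10 ± 0.14, adjusted p = 5.92e-10). ZMAT3, an RNA-binding protein, had 449, 868 and 409.6 in DAC libraries, against 131, 32.0 and 55.5 in untreated ones (log2 change 3.12 ± 0.47, adjusted p = 0.000240). In the BCL2 family, 6 of 15 tested were higher (40%) and 3 lower (20%), against 20.8% and 18.2% over all genes. Leaving out untreated replicate 1 gave 7 and 4. The number lower was 1 when any other library was left out, with the GC trend removed or with the mitochondrial covariate, as BAD (log2 change −0.85) and BIK (−0.51) lost their calls. BCL2L11 (BIM), which promotes death, had 1565, 1807 and 1681 in DAC libraries, against 391, 386 and 430.3 in untreated ones (log2 change 2.06 ± 0.19, adjusted p = 2.63e-06). BMF, of the same kind, was higher (log2 change 2.63 ± 0.32, adjusted p = 2.85e-05), and BCL2 itself, the survival protein, had 228, 356 and 239 in DAC libraries, against 1024, 617 and 639.5 in untreated ones (log2 change −1.46 ± 0.29, adjusted p = 0.00161). The survival gene MCL1 was higher (log2 change 1.18 ± 0.23, adjusted p = 0.00133), a call lost with the mitochondrial ribosomal RNA share as a covariate (0.54).

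Growth and metabolism genes changed in part of each list. Of 41 tested ribosome biogenesis genes 17 were lower and 1 higher, 16 and 5 without untreated replicate 1, and of 74 ribosomal protein genes 25 were lower and 0 higher. MRTO4, of the large subunit, had 908, 1024 and 1028 in DAC libraries, against 3469, 4635 and 4741 in untreated ones (log2 change −2.10 ± 0.17, adjusted p = 8.25e-07). RRN3, the RNA polymerase I factor, was the member that was higher (log2 change 2.35 ± 0.26, adjusted p = 1.46e-05). In the MYC network 5 of 12 were higher (41.7%) and 3 lower (25%), against 20.8% and 18.2% over all genes. MYC had 23.8, 18.4 and 23.1 in DAC libraries, against 45.7, 61.6 and 49.1 in untreated ones (log2 change −1.22 ± 0.22, adjusted p = 0.000794), and MYCN had 5596, 5445 and 5846 in DAC libraries, against 7670, 12100 and 10785 in untreated ones (log2 change −0.83 ± 0.18, adjusted p = 0.00273), a call lost with the mitochondrial covariate (−0.31). MXD4, which opposes MYC, had 2164, 2127 and 2356 in DAC libraries, against 283, 409 and 304 in untreated ones (log2 change 2.75 ± 0.18, adjusted p = 1.61e-07), and MYCL had 459, 513 and 538 in DAC libraries, against 8.71, 5.92 and 2.14 in untreated ones (log2 change 6.40 ± 0.51, adjusted p = 7.40e-07).

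Glycolysis genes were lower in 9 of 19 members (47.4%, against 18.2% over all genes). Higher were 3 (15.8%, against 20.8%), or 1 without DAC replicate 3. GPI, the second enzyme of the pathway, had 257, 282 and 261 in DAC libraries, against 1340, 1529 and 1271 in untreated ones (log2 change −2.36 ± 0.18, adjusted p = 5.42e-07). SLC2A3 (GLUT3) was higher (log2 change 2.17 ± 0.29, adjusted p = 5.78e-05). Of 23 ATF4 and stress genes 6 were higher (26.1%) and 7 lower (30.4%), against 20.8% and 18.2% over all genes. With the GC trend removed there were 7 and 6. PHGDH, the first enzyme of serine synthesis, had 25.6, 14.7 and 10.98 in DAC libraries, against 171, 181 and 169 in untreated ones (log2 change −3.35 ± 0.47, adjusted p = 9.43e-05), and ERN1 (IRE1) was higher (log2 change 2.07 ± 0.19, adjusted p = 2.14e-06). Of 26 tested cholesterol genes 2 were higher and 5 lower (19.2%, near the 18.2% over all genes), and ABCA1, the efflux pump, was higher (log2 change 2.06 ± 0.32, adjusted p = 0.000220). Lysosome genes were higher in 10 of 23 members and lower in 1, 0 without DAC replicate 1 or 2 or untreated replicate 2, with CTSA, a lysosomal peptidase, at 637, 598 and 727 in DAC libraries, against 68.2, 111 and 84.3 in untreated ones (log2 change 2.90 ± 0.22, adjusted p = 4.17e-07). Adhesion and matrix genes were higher in 12 of 26 and lower in 1, 0 when any library but untreated replicate 1 was left out, and LAMA5, a laminin chain, had 951, 795 and 1033 in DAC libraries, against 3.63, 21.3 and 7.47 in untreated ones (log2 change 6.59 ± 0.57, adjusted p = 2.17e-06). Of 13 messages encoded by mitochondrial DNA, 1 was higher and 0 lower. There were 5 higher without untreated replicate 1, whose mitochondrial ribosomal RNA share was 38.2%, 2 without DAC replicate 1 and 0 without any other library.

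Across all protein-coding genes with more than 3 reads in both groups, HBG1, PF4 and HIST1H4B had the largest rises. Next came ZNF648, a zinc finger gene, with 957, 931 and 1006 in DAC libraries, against 0.726, 2.37 and 2.14 in untreated ones (log2 change 8.52 ± 0.59, adjusted p = 2.00e-07), and MPEG1, perforin 2 of macrophages, with 2255, 2683 and 2458 in DAC libraries, against 4.36, 10.7 and 4.27 in untreated ones (log2 change 8.48 ± 0.51, adjusted p = 6.23e-08). STAB1, a scavenger receptor, had 762, 724 and 740.1 in DAC libraries, against 1.45, 0 and 7.47 in untreated ones (log2 change 8.08 ± 0.54, adjusted p = 2.61e-07). The largest falls were ARHGEF16 (log2 change −4.84 ± 0.50, adjusted p = 7.11e-06) and COL5A1. COL5A1, a collagen chain, had 32.0, 29.4 and 20.9 in DAC libraries, against 644, 1033 and 769 in untreated ones (log2 change −4.84 ± 0.29, adjusted p = 6.77e-08). TNFRSF8 (CD30) had 4.57, 11.9 and 7.69 in DAC libraries, against 138, 201 and 237 in untreated ones (log2 change −4.46 ± 0.44, adjusted p = 4.50e-06), and IGLL1, a part of the pre-B cell receptor, had 0, 1.84 and 2.20 in DAC libraries, against 37.7, 30.8 and 37.4 in untreated ones (log2 change −4.12 ± 0.49, adjusted p = 2.32e-05).

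Rises from near 0 and falls to it are given as a description. Genes near 0 in a group passed the filter only through other groups, where they were higher. How many tested genes were near 0 in either group was not counted, so 648 against 22 is no comparison of rates. There were 648 genes with 3 or fewer reads over the 3 untreated libraries that were higher in DAC libraries, 410 of them protein-coding and 164 long noncoding RNAs, against 22 with 3 or fewer reads over the DAC libraries that were lower. TSPYL6, a testis gene, had 622, 642 and 601 in DAC libraries and 0 in each untreated library, at least 656-fold higher. NAA11, an acetyltransferase of the testis, had 413, 509 and 378 in DAC libraries and 0 in each untreated library, at least 459.6-fold higher. CD1A, a lipid-presenting molecule of Langerhans cells and thymocytes, had 599, 615 and 620.4 in DAC libraries, against 0, 0 and 1.07 in untreated ones, a ratio of reads of 1929 (346 to 76231). NFE4, known from fetal globin regulation, had 563, 712 and 607 in DAC libraries, against 0.726, 2.37 and 0 in untreated ones, a ratio of reads of 662 (226 to 3212). None of these 4 was above 2.37 in any untreated library. Of the 648, found among 17180 tested genes, 54 lay on the X chromosome, where 642 genes were tested, and 80 on chromosome 1, where 1749 were. Of all tested protein-coding genes 22.9% were higher. The largest shares named here were 30.7% on X and 27.6% on chromosome 1, against 14.8% on chromosome 16 and 17.7% on chromosome 19. Shares by chromosome were not computed with the GC trend removed, so the part of GC content in them was not tested.

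By annotated type, 2624 of 11478 protein-coding genes were higher (22.9%) and 2064 lower (18.0%). Long noncoding RNAs were higher in 587 of 2367 (24.8%) and lower in 295 (12.5%). PROSER2-AS1 had 736, 693 and 743 in DAC libraries, against 0.726, 1.18 and 2.14 in untreated ones (log2 change 8.31 ± 0.28, adjusted p = 4.95e-10), and MIR210HG, the host of miR-210, had 6.40, 9.18 and 3.29 in DAC libraries, against 109, 150.4 and 107 in untreated ones (log2 change −4.15 ± 0.39, adjusted p = 3.04e-06). Processed pseudogenes went mostly the other way, with 215 of 2605 higher (8.25%) and 698 lower (26.8%), and with the GC trend removed 257 and 772. Reads of a processed pseudogene and of its parent gene may be hard to assign where they are near copies, so these values are uncertain. Among pseudogenes, HBBP1, in the beta globin cluster, had 416, 457 and 527 in DAC libraries, against 15.2, 3.55 and 11.7 in untreated ones (log2 change 5.57 ± 0.43, adjusted p = 6.01e-07), and IFIT1P1 had 93.2, 131 and 125 in DAC libraries, against 2.90, 3.55 and 4.27 in untreated ones (log2 change 4.68 ± 0.31, adjusted p = 1.63e-07). Small nucleolar and Cajal body RNAs were higher in 6 and lower in 13 of 138. MT-RNR1, mitochondrial ribosomal RNA, had 1738100, 2329200 and 2387900 in DAC libraries, against 865880, 698690 and 749370 in untreated ones (log2 change 1.47 ± 0.20, adjusted p = 9.04e-05). MT-RNR2 had 6168200, 11707000 and 8145100 in DAC libraries and 6216400, 2398000 and 2424500 in untreated ones, which overlapped through untreated replicate 1 (log2 change 1.34 ± 0.39, adjusted p = 0.0156). MT-RNR2 lost its call without DAC replicate 2 (1.10) or untreated replicate 2 (1.11) or 3 (1.12), and came to −0.09 with its own share as the covariate.

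**Figure D4:**
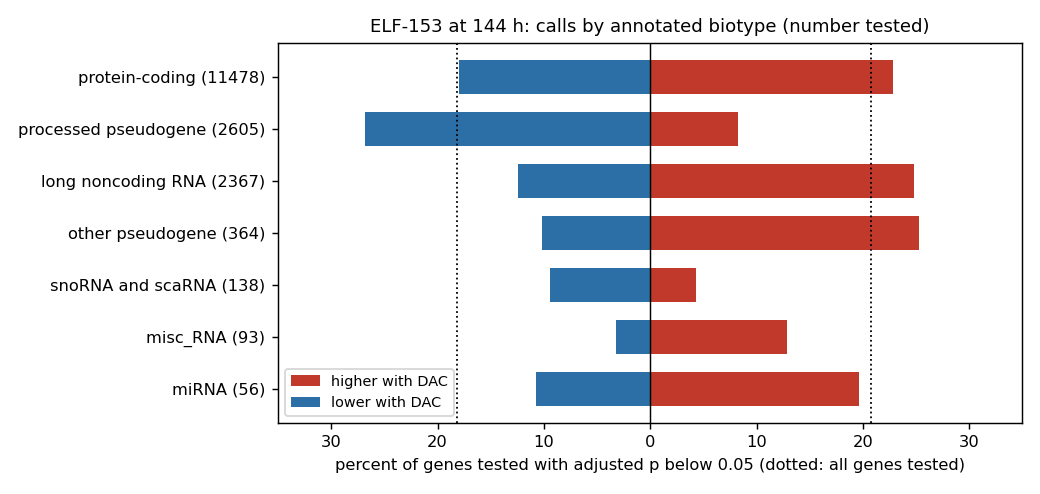
Bars show the percent of tested genes of an annotated type (number tested in brackets, types with at least 50) that were higher (red, right) or lower (blue, left) in DAC libraries at an adjusted p of 0.05; dotted lines mark all genes (20.8% and 18.2%). Processed pseudogenes have the longest bar on the left (26.8%) and long noncoding RNAs one of the longest on the right (24.8%).

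The same treatment in UCSD-AML1, the other line of the series (3 DAC and 3 untreated libraries at 144 h), shows where the ELF-153 response differed. The difference between the lines, ELF-153 change minus UCSD-AML1 change, passed the threshold in 30% of genes, upward in 3420 (19.9%) and downward in 1741 (10.1%), so that 66.3% of calls were upward. That split depended on scaling: edgeR with TMM gave 1961 upward and 2533 downward (43.6% upward), and limma with TMM 2995 and 2190 (57.8%), the median difference over genes being 0.21, −0.13 and 0.08 in the same order. Without untreated replicate 1 of ELF-153 there were 4513 upward and 2478 downward, and without DAC replicate 2 there were 2008 and 1095. Without untreated replicate 2 the counts were 2172 and 1033, and without untreated replicate 3 they were 2136 and 1042. Each called gene named below differed by more than those shifts.

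Interferon-stimulated genes differed between the lines in nearly every member. In ELF-153 45 of 48 were higher and 1 lower, in UCSD-AML1 0 were higher and 27 lower (background there 20.1% higher and 26.8% lower, 46.9% in all), and the difference was called upward in 46 and downward in 0. For OASL the difference was 8.01 ± 0.27, adjusted p = 2.28e-09, with a change of 5.79 in ELF-153 and of −2.22 in UCSD-AML1. For IFIT1 it was 8.04 ± 0.65, adjusted p = 7.69e-06, with 6.33 in ELF-153 and −1.70 in UCSD-AML1. Both thus had opposite signs in the lines. NLRC5, the class I transactivator, differed the other way (−0.80 ± 0.28, adjusted p = 0.0449), with 1.88 in ELF-153 and 2.68 in UCSD-AML1.

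MAGE genes were higher in both lines, 11 of 11 in ELF-153 and 10 of 11 in UCSD-AML1, with the difference upward in 10, counts that are a description, since the members passed the filter through treated cells. MAGEC2 was the exception, with a difference of 0.60 ± 0.46, adjusted p = 0.338. Megakaryocyte genes were higher in 22 of 32 in ELF-153 and 24 of 32 in UCSD-AML1, with the difference upward in 12 and downward in 3. For GP9 the difference was 6.39 ± 0.54, adjusted p = 9.95e-06 and for TUBB1 5.18 ± 0.37, adjusted p = 1.67e-06, while VWF, from the endothelial list, differed downward (−2.73 ± 0.43, adjusted p = 0.000949). Mitotic genes were lower in 42 of 58 in ELF-153 and 56 of 58 in UCSD-AML1, with medians of −1.47 and −3.14, and the difference was upward, a smaller fall in ELF-153, in 28 and downward in 1. For KIF4A the change was −1.75 in ELF-153 and −4.97 in UCSD-AML1, a difference of 3.22 ± 0.29, adjusted p = 1.19e-05. Cholesterol genes differed downward in 11 of 26 and upward in 2, with 2 higher and 5 lower in ELF-153 and 8 higher and 3 lower in UCSD-AML1. COL5A1, among the largest falls in ELF-153, differed by −5.78 ± 0.42, adjusted p = 1.73e-06, with a rise in UCSD-AML1 (log2 change 0.94, adjusted p = 0.0194). ZNF595, a zinc finger gene, was higher in both lines and more so in UCSD-AML1, with 2.61 in ELF-153 and 8.33 in UCSD-AML1 (−5.72 ± 0.27, adjusted p = 6.82e-08).

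**Figure D5:**
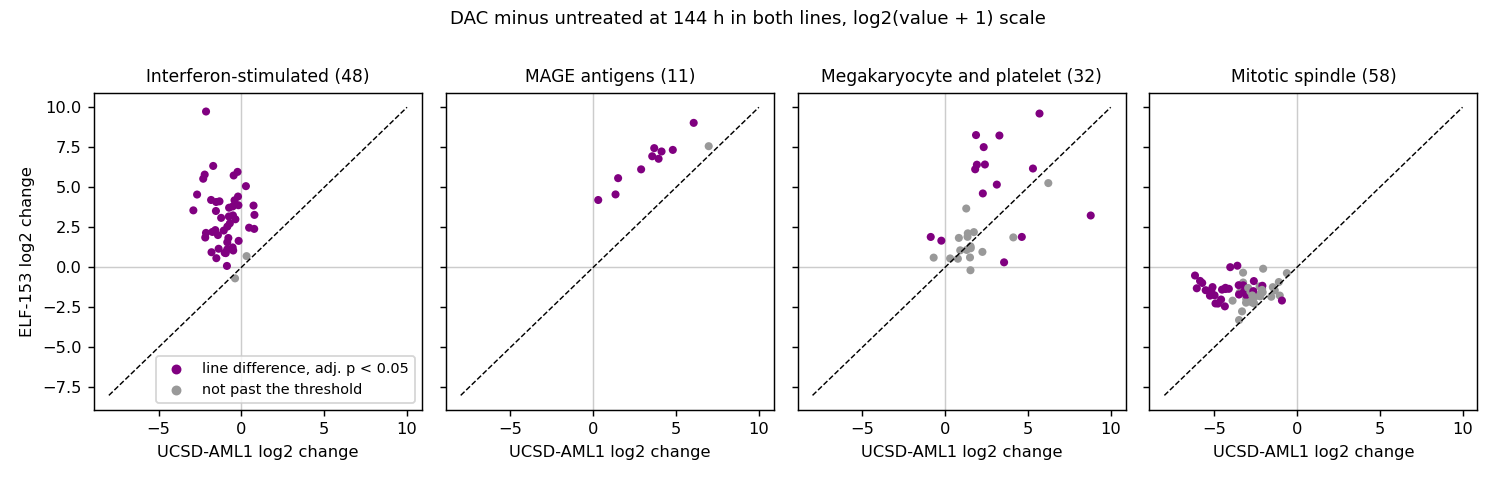
Each point is a tested gene of a list at its log2 change (DAC minus untreated, 144 h) in ELF-153 on the vertical and in UCSD-AML1 on the horizontal axis, purple where the difference between lines passed an adjusted p of 0.05; the dashed line marks equal changes. Most interferon-stimulated genes lie above the dashed line and left of 0, MAGE antigens lie above the line on the positive side, and most mitotic genes lie below 0 on both axes, with the difference called upward in 28 of 58.

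The change at 144 h was set against that at 96 h in the same line (3 DAC and 3 untreated libraries each). Of 16773 genes tested, 2 passed the threshold (0.0119%), both with a larger rise at 144 h, and edgeR with TMM called 1. At an unadjusted p under 0.05 there were 767 genes in limma and 632 in edgeR. THBS1 had a change of 6.17 at 144 h and 4.09 at 96 h, a difference of 2.09. The long noncoding RNA AC005394.2 had 182, 188 and 199 in DAC libraries and 0 in each untreated library at 144 h, at least 199-fold higher, and its change differed by 3.91. Neither call held when any DAC library of either harvest, untreated replicate 2 or 3 of 144 h or untreated replicate 3 of 96 h was left out (0 genes called). For other genes a difference between harvests was not detectable with these libraries, which does not show that the changes were alike.

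The deposited rows are transcripts, and a gene's sum can hide transcripts that moved apart. Of 6409 genes with at least 2 transcripts above the filter, 368 (5.74%) changed their transcript use under DAC, and 36 of these had a transcript higher and another lower by at least 2-fold, each past the threshold. Without untreated replicate 1 there were 978 and 110, and without any other library 205 to 213 and 13 to 24. FDFT1, squalene synthase, had overlapping sums of 178, 171 and 176 in DAC libraries and 159, 205 and 171 in untreated ones. Its protein-coding transcript FDFT1-222 had 43.0, 65.1 and 48.3 in DAC libraries and 0 in each untreated library, while FDFT1-214 had 40.2, 30.3 and 24.2 in DAC libraries, against 55.2, 81.7 and 66.2 in untreated ones (log2 change −1.09 ± 0.33, adjusted p = 0.0219). PARP16, an ADP-ribosyltransferase, was higher as a sum (log2 change 1.68 ± 0.25, adjusted p = 0.000142), through the noncoding transcript PARP16-203, with 128, 167 and 165 in DAC libraries, against 2.90, 3.55 and 12.8 in untreated ones. Its coding transcript PARP16-201 was lower, with 8.23, 8.26 and 6.59 in DAC libraries, against 32.7, 55.7 and 36.3 in untreated ones (log2 change −2.26 ± 0.47, adjusted p = 0.00253), so the sum and the coding transcript had opposite signs. CALN1, a calcium-binding protein gene, had CALN1-202 at 21.9, 20.2 and 7.69 in DAC libraries and 0 in each untreated library, and CALN1-201 at 4.57, 1.84 and 10.98 in DAC libraries, against 31.9, 47.4 and 45.9 in untreated ones. RMI2, of the BLM complex, and GSN, gelsolin, were also among the 36 genes.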

How the data were processed

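The deposited 144 h table holds signal values: per the file's values, reads per transcript divided by 1 size factor per library by the authors, and within a tolerance of 0.01 100% of values were whole multiples of a library's step, so reads could be recovered. Per the submitters' processing notes, the tools included HTSeq, STAR, TopHat2, FastQC and DESeq2 and the build hg19, without versions; which step used which tool was not stated there. Of 204940 transcripts, 181859 (88.7%, 97.8% of the value) matched 52994 genes of GENCODE release 29; the others are not analysed here, nor are 12 columns of a repeat table of 96 h libraries. Limma 3.58.1 (R 4.3.3; eBayes, trend and robust) was fitted on log2(value + 1) over the 12 libraries of the table, 1 mean per group, keeping genes with a value of 10 in 3 libraries or more, at an adjusted p of 0.05. Transcript use was tested with limma's diffSplice, and the harvests with the same model over the 12 ELF-153 libraries of both tables, scaled separately. Groups follow the labels.

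Where a group held 0 reads, folds are bounds against a floor of 3 reads over the group; with 1 to 3 reads the ratio of reads has a 95% exact counting interval. Named genes were a fixed set, the 5 members of each of 51 lists with the smallest adjusted p and members against the majority, the 10 largest rises and falls (5 for noncoding RNAs and pseudogenes), 8 near 0, 8 per direction of each difference, 8 for transcript use and the 10 highest, with some left out for length or because they are not reported here. Genes with printed promoter windows, MKI67, IFNAR1 and IFNAR2 were chosen after their values were seen. Members and lists were chosen with earlier results of these data known. Promoters are RefSeq's, matched by symbol. The script was tested on simulated data. Alternatives used edgeR 4.0.16 and DESeq2 1.42.0 on recovered reads, pseudocounts 0.5 and 8, other filters, TMM, a fold of 1.5, a replicate block, the 6 libraries alone, the mitochondrial share as covariate, no retained-intron, processed and nonsense-mediated-decay transcripts and 1 library left out; a loess fit on GC content (span 0.3), subtracted per library, and lists with the mitochondrial covariate or without each library were added after seeing the data. Python 3.11.15, pandas 2.3.3, numpy 2.4.6, scipy 1.17.1 and matplotlib 3.10.9 served for tables and figures.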

Additional observations from a re-analysis of the deposited data

Results flagged for a closer look

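The difference between the lines was among the largest, of genes past the threshold in each direction, for the following genes, given as the ELF-153 change minus the UCSD-AML1 change on the log2 scale (limma, all with an adjusted p under 0.05). Upward were IFI44L at 11.87, HIST1H4C at 9.46, RNU5E-1 at 8.36, SUCNR1 at 8.17, RHAG at 8.08 and IFIT1 at 8.04. SUCNR1, the succinate receptor, had 696, 1337 and 769.7 in ELF-153 DAC libraries, against 37.0, 9.48 and 7.47 in untreated ones. RNU5E-1, a spliceosomal RNA with near copies, was not past the threshold in ELF-153 (adjusted p = 0.150), and its difference rests on a fall in UCSD-AML1 (log2 change −6.93, adjusted p = 1.82e-05).

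Downward were SYNDIG1 at −8.07, IGSF10 at −6.07, CD207 at −6.01, RNF152 at −5.95, COL5A1 at −5.78, ZNF595 at −5.72, GNLY at −5.71 and the long noncoding RNA KIAA0087 at −5.67. SYNDIG1, a synapse protein, had 54.8, 49.5 and 56.0 in ELF-153 DAC libraries, against 348, 747 and 659.8 in untreated ones, and rose in UCSD-AML1 (log2 change 4.71, adjusted p = 2.34e-07). CD207 (langerin), RNF152 and GNLY (granulysin) had at most 4, 7 and 2 reads in either ELF-153 group, so their differences rest on rises in UCSD-AML1. Between harvests in ELF-153, the change at 144 h exceeded that at 96 h by 3.91 for AC005394.2 and by 2.09 for THBS1.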

How the results depend on the processing

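Depth of 15.8 to 28.5 Mreads, 3 technical libraries a group and the library differences described above limit the precision; genes at or near 0 reads give bounds or counting intervals that cover counting error only. The numbers of genes higher and lower in ELF-153 at 144 h stayed within 1.5 times of 3567 and 3124 under all alternatives but the test against a fold of 1.5 (1923 and 1216), with 2800 to 4255 higher and 2374 to 3304 lower when 1 library was left out. The filter of any value above 0 in 3 libraries gave 4710 and 3215, edgeR with TMM 3364 and 3258, DESeq2 3634 and 3248, removal of the GC trend 4053 and 3338, and the mitochondrial ribosomal RNA covariate 2719 and 3109, though it kept only 3912 of 6691 calls. Replicate numbers did not pair the samples: same-numbered DAC and untreated libraries correlated by −0.24, −0.32 and 0.16 across genes. A replicate block gave 3558 and 2986 genes for the DAC effect, 3482 and 1684 for the line difference, 0 for the time difference and 340 for transcript use.

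The line difference gave 1961 upward with edgeR, and 2008 to 4513 upward and 1033 to 2478 downward with 1 library left out. The time difference gave 1 with edgeR and 0 to 3 with 1 library left out. Transcript use gave 174 genes, 9 of them opposite, with a filter of 50, and 865 with a pseudocount of 8; with 1 library left out it gave 205 to 978 and 13 to 110. Over 367 named genes and 19 settings, 6665 of 6930 values kept direction and side of the threshold, 212 lost and 47 gained a call, and 6 turned. With the mitochondrial covariate BIK came to 0.017, KIT to −1.59 (past the threshold), MT-RNR2 to −0.092, PDK1 to −0.23 and RN7SL2 to 0.66, and without retained-intron, processed and nonsense-mediated-decay transcripts PARP16 came to −2.26, the value of its coding transcript; the cause of the others was not tested. The test against a fold of 1.5 and the mitochondrial covariate ended the most calls, 54 and 35 among named genes. For the gene lists 488 of 510 counts stayed within 1.5 times with the same majority. The stem and progenitor list had 4 lower without untreated replicate 1 (4 to 5 over the libraries left out), the ATF4 list 6 lower with the GC trend removed, and the mitochondrial messages 1 higher (2 lower) with the GC trend removed and 0 to 5 with 1 library left out (0 without DAC replicate 2). With the mitochondrial covariate those messages had 0 higher and 4 lower, APOBEC3 genes 3 higher, complement 4 higher, cholesterol genes 3 lower, glycolysis 5 lower, the ATF4 list 3 higher, the MYC network and B cell markers 1 lower each, growth factor receptors 3 lower and drug handling genes 1 higher. The cause of these was not tested.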
